A study of Mus musculus with 8 samples.

Results

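The genes described here are 32 genes of osteoclast differentiation and bone resorption, chosen by name for their known roles in this cell. The rule that picks their rows uses no measured value, but the genes were chosen with earlier results of these data known. They were found among the 49315 gene IDs of the count table by their symbols, each matched 1 ID, and all 32 were among the 17743 genes with enough counts to be tested. The study sequenced RNA from calvaria, the bones of the skull vault, taken from female pups of strain C57BL6 at 2 to 3 days of age. The 4 knockout (KO) libraries came from Girk3-/- mice, which lack the potassium channel subunit encoded by Kcnj9, and the 4 wild-type (WT) libraries from WT mice of the same strain, sex and age. The labels give no promoter, floxed allele or Cre, and no treatment, for either genotype. Whole bones were washed, snap frozen and homogenized, so each library holds osteoblasts, osteocytes, osteoclasts, marrow and whatever tissue adhered to the bone.

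Osteoclasts are multinucleated cells formed by the fusion of monocyte and macrophage precursors under the cytokines M-CSF and RANKL. An active osteoclast seals itself to bone through the vitronectin receptor, pumps protons across a ruffled border with a vacuolar H+-ATPase (V-ATPase) while chloride follows through an exchanger, and secretes proteases that digest the exposed collagen. In the newborn skull these cells remodel the bone as it grows, and several of the genes below cause osteopetrosis, a failure of resorption, when mutated in humans or mice.

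Library totals ran from 35392465 to 54290034 counts in KO and from 42677925 to 49600047 in WT, and the lowest count of any of the 32 genes in any library was 135. Kcnj9 itself held 2 to 9 counts in the KO libraries and 0 to 4 in the WT libraries, so it does not check the labels at this depth, and KO and WT below mean the libraries labelled so. Of all tested genes, 79 were called higher and 155 lower in KO (edgeR quasi-likelihood test, adjusted p under 0.05). With library totals alone in place of TMM scaling, which moved the median log2 fold change of all genes to 0.05, the split was 113 higher and 99 lower. Summed skeletal muscle markers differed widely between libraries, from 44.7 to 2981 CPM (counts scaled to a common library size) in KO and from 7.44 to 2073 CPM in WT. KO 2, KO 3 and WT 3 were the 3 libraries lowest in them. The defining osteoclast markers were present in every library, and the lowest level of Acp5 in any library was 883 CPM.

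The osteoclast genes were lower in KO calvaria as a group, by a modest amount per gene. Of the 32 genes, 31 had a log2 fold change (KO over WT) below 0, against 50.1% of all tested genes, and their median was -0.40, against -0.0003 over all tested genes. Fold changes of the mean CPM ran from 0.652 for Ocstamp to 1.02 for Sigirr, with a median of 0.758. Few of them passed the adjusted threshold: 4 genes, Ckb, Atp6v1d, Jdp2 and Mitf, were called lower and 0 were called higher, where 0.874% of all tested genes were called lower. At an unadjusted p under 0.05, 23 of the 32 were lower, against 9.11% of all tested genes, and 0 were higher. In 6 genes (Ckb, Atp6v1b2, Atp6v1d, Ocstamp, Mitf and Jdp2) all KO libraries lay below all WT libraries, against 5.96% of all tested genes. The 32 genes share their libraries and mostly varied together with Ctsk within genotype, so these counts are not 32 separate observations. None of the osteoclast markers Acp5, Ctsk, Calcr, Oscar, Ocstamp, Dcstamp, Atp6v0d2, Mmp9 and Itgb3 was among the 4 called genes. Their edgeR adjusted p-values ran from 0.0510 for Ocstamp to 0.311 for Oscar. In bulk tissue, fewer osteoclasts, less of these transcripts per osteoclast and less of them in other cells of the bone cannot be told apart.

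How many genes passed depended on the test and on single libraries. DESeq2 called 15 of the 32 lower, against 3.04% of all tested genes, and limma-voom called 1, Ckb, against 0.654%. Besides the 4 genes of the edgeR test, the 15 were Acp5, Mmp9, Atp6v0d2, Tcirg1, Atp6v1b2, Atp6v1c1, Atp6v1h, Snx10, Ocstamp, Dcstamp and Itgb3. With edgeR, 0 members were called without KO 1, KO 2, WT 2, WT 3 or WT 4, 1 without KO 3, 6 without KO 4 and 9 without WT 1, where 0.227% to 1.68% of all tested genes were called lower. The median log2 fold change stayed between -0.48 and -0.30 over those 8 fits.

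**Figure D1:**
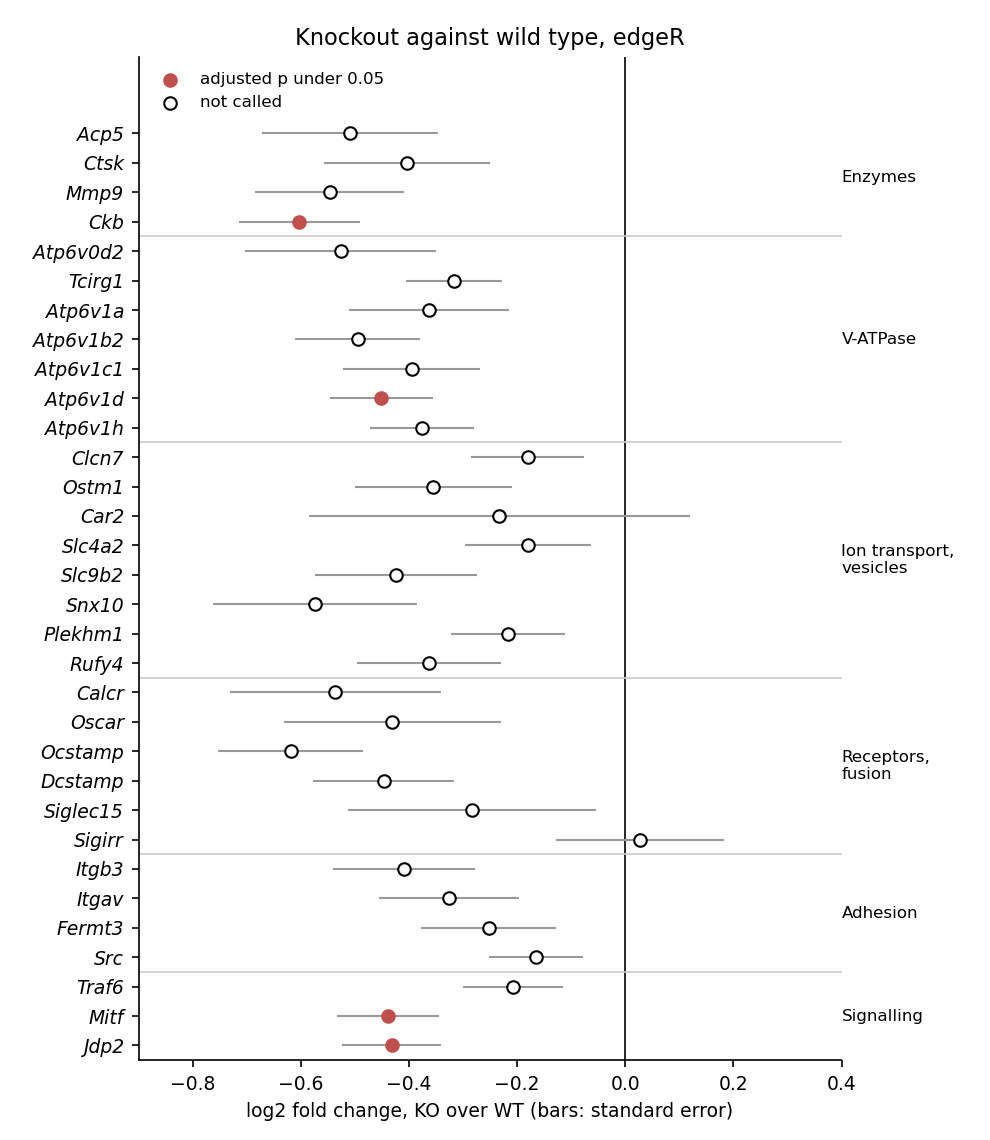
Log2 fold change of each osteoclast gene, KO over WT, from the edgeR fit, with its standard error as a bar; genes are grouped by role and filled points passed an adjusted p under 0.05. Only Sigirr, at 0.03, lies to the right of 0, and the 4 filled points lie between -0.60 and -0.43.

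Read per kilobase of exon, which allows a rough comparison of levels between genes, the 4 resorption enzymes had the highest levels. Exon length was taken over all annotated transcripts of a gene, whichever of them were expressed. Ctsk averaged 1619 ± 333 CPM per kilobase in KO and 2141 ± 321 in WT, and Acp5 601 ± 129 in KO and 855 ± 139 in WT (SD, n = 4 each). Mmp9 followed at 359.8 ± 51.8 CPM per kilobase in KO and 526 ± 93.4 in WT, and Ckb at 145 ± 19.4 in KO and 221 ± 28.0 in WT. The order of these 4 was the same in both genotypes and their WT means were farther apart than their SDs. Next came the osteoclast-enriched pump subunit Atp6v0d2, at 47.5 ± 10.5 CPM per kilobase in KO and 68.4 ± 12.4 in WT, whose spread overlapped those of Atp6v1b2 and Tcirg1. The 4 lowest genes in both genotypes were Fermt3, Mitf, Sigirr and Calcr, and Calcr averaged 0.936 ± 0.110 CPM per kilobase in KO and 1.36 ± 0.375 in WT.

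The resorption enzymes were the group with the lowest median, -0.53 over 4 genes, and 1 of the 4 was called. Ckb, the brain-type creatine kinase that regenerates ATP and is known to fuel proton pumping in osteoclasts, fell in KO. It had 359.7, 388, 471 and 466 CPM in KO 1 to KO 4, against 540.1, 654, 737 and 627 CPM in WT 1 to WT 4. Every KO library was below every WT library, with KO 1 lowest and WT 3 highest. Its log2 fold change was -0.60 ± 0.112 (SE, edgeR adjusted p = 0.0235), and it was called in 3 of the 8 fits that left out a library. The gene (ENSMUSG00000001270) lies on chromosome 12 from 111669361 to 111672338, minus strand, in GRCm38/mm10.

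Mmp9, a gelatinase that cuts denatured collagen, had 1114, 1122, 1475 and 1382 CPM in KO 1 to KO 4, against 1407, 1827, 2148 and 2058 CPM in WT 1 to WT 4. The groups overlapped through KO 3 and WT 1, and the log2 fold change of -0.55 ± 0.137 (SE) missed the threshold with an edgeR adjusted p of 0.0818. Acp5 encodes tartrate-resistant acid phosphatase, the enzyme stained to find osteoclasts in sections. It had 883, 1147, 1459.8 and 1388 CPM in KO 1 to KO 4, against 1411, 1713, 2098 and 1718 CPM in WT 1 to WT 4. KO 3 passed WT 1, so the groups overlapped, and the log2 fold change was -0.51 ± 0.162 (SE, edgeR adjusted p = 0.156). An antisense gene, 6530413G14Rik, covers 6.75% of the exon bases of Acp5, and without a stated strand setting reads there cannot be assigned.

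Ctsk encodes cathepsin K, the protease that degrades type I collagen in the resorption pit, and was the most abundant of the 32 genes. It had 1799, 2301, 2831 and 2860.4 CPM in KO 1 to KO 4, against 2623, 3264, 3809 and 3255 CPM in WT 1 to WT 4. WT 1 lay below KO 3 and KO 4, and the log2 fold change of -0.40 ± 0.153 (SE) was not called (edgeR adjusted p = 0.210).

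**Figure D2:**
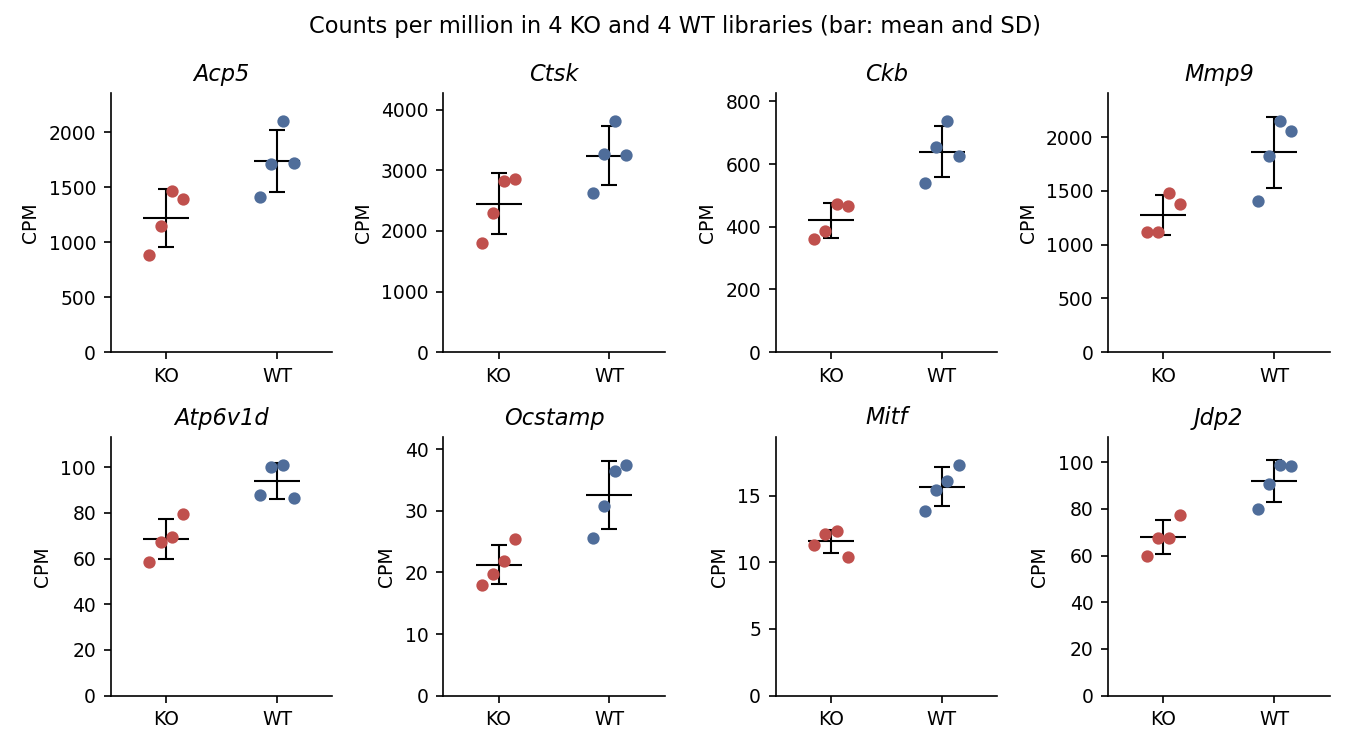
CPM of 8 osteoclast genes in each library, KO left of WT, with each group's mean and SD as a bar. Ckb, Atp6v1d, Ocstamp, Mitf and Jdp2 show no overlap between genotypes, while in Acp5, Ctsk and Mmp9 the lowest WT library lies among the KO libraries.

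The promoters of these genes were read from RefSeq (GRCm38.p6) as windows of 300 bases, 250 before and 50 after each start site, which 21 of the 32 genes had, with 34 windows in all. Each was searched on both strands for 4 motifs of factors known for osteoclast genes: TGANTCA for AP-1, CANGTGA for MITF and its relatives, GGAAAA for NFAT, and GAGGAA for PU.1. Capitals in the sequences mark matches, also those of the other strand, which appear as the reverse complement of the motif. All sequences are written 5′ to 3′ on the strand of the gene, and a stretch that matches more than 1 motif counts for each. The windows of Ctsk, the most abundant member, and of Ckb, the called enzyme, are shown to compare a window with matches and one without, at chr3:95498960-95499259 (plus strand) and chr12:111672289-111672588 (minus strand).
Ctsk promoter: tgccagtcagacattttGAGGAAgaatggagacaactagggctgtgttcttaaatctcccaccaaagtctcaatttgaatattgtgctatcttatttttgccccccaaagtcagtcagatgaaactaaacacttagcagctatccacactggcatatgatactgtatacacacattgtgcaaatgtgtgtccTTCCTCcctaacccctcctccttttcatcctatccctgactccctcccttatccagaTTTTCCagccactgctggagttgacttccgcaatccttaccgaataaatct
Ckb promoter: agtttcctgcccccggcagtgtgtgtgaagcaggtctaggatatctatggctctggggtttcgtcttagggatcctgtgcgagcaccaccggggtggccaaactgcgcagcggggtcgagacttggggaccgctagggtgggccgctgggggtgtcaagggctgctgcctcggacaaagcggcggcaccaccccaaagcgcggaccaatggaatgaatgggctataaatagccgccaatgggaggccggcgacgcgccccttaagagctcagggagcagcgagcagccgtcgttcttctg

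The Ctsk window held the PU.1 motif at bases 18 and 193, counted from the first base of the window, and the NFAT motif at base 250, and the Ckb window held none of the 4 motifs. Over the 34 windows, AP-1 letters were in 5.88%, against 7.81% of all 32851 windows, MITF letters in 14.7%, against 16.6%, NFAT letters in 23.5%, against 23.4%, and PU.1 letters in 35.3%, against 28.3%. These shares describe letters in short windows and say nothing of binding.

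The V-ATPase subunits had 7 of 7 log2 fold changes below 0, with a median of -0.40 and a range from -0.53 to -0.32, and 1 of the 7 was called. Atp6v1d, which forms part of the central rotor of the pump, fell in KO. It had 58.3, 67.1, 69.5 and 79.7 CPM in KO 1 to KO 4, against 87.8, 99.99, 101 and 86.5 CPM in WT 1 to WT 4. The groups did not overlap, with WT 4 the lowest WT library here, and the log2 fold change was -0.45 ± 0.0954 (SE, edgeR adjusted p = 0.0399). It was called in 2 of the 8 fits without a library. The gene (ENSMUSG00000021114) lies on chromosome 12 from 78840725 to 78861638, minus strand.

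Atp6v1b2, the B subunit used by osteoclasts, also had no overlap between groups. Its values were 179, 215, 243 and 229 CPM in KO 1 to KO 4, against 244, 329, 338 and 309.5 CPM in WT 1 to WT 4. KO 3 and WT 1 nearly touched, and the log2 fold change was -0.49 ± 0.116 (SE, edgeR adjusted p = 0.0591). Atp6v0d2, a membrane-sector subunit enriched in osteoclasts and needed for their fusion in mice, had 94.9, 134, 164 and 123 CPM in KO 1 to KO 4, against 144, 185, 226 and 189 CPM in WT 1 to WT 4. KO 3 lay above WT 1, and the log2 fold change of -0.53 ± 0.176 (SE) was not called (edgeR adjusted p = 0.179). Tcirg1, the membrane-sector subunit of the osteoclast pump whose loss causes osteopetrosis, had 171, 186, 197 and 213 CPM in KO 1 to KO 4, against 211, 231, 259 and 254 CPM in WT 1 to WT 4. KO 4 just passed WT 1, and the log2 fold change was -0.32 ± 0.0886 (SE, edgeR adjusted p = 0.105). Atp6v1a, the catalytic subunit, Atp6v1c1 and Atp6v1h lay between -0.40 and -0.36, with edgeR adjusted p-values of 0.248, 0.152 and 0.0811.

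The promoters of Atp6v1a (chr16:44139210-44139509, minus strand) and of Atp6v1d (chr12:78861589-78861888, minus strand) are shown because they are the 2 pump subunits outside Tcirg1 with a window.
Atp6v1a promoter: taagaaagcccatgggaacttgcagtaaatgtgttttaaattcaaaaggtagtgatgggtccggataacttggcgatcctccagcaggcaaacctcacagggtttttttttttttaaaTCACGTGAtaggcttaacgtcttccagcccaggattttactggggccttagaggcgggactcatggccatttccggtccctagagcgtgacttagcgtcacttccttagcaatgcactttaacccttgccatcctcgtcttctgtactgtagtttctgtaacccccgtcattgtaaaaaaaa
Atp6v1d promoter: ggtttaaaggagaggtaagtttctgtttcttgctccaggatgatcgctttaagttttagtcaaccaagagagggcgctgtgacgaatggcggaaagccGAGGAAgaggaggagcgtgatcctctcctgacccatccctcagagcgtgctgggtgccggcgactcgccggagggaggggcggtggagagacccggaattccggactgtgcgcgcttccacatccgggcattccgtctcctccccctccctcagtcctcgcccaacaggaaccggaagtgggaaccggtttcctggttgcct

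The Atp6v1a window held the MITF motif on both strands in 1 overlapping stretch from base 119, and the Atp6v1d window held the PU.1 motif at base 99.

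Of the 13 tested genes among the 15 other V-ATPase subunits listed, 0 were called in either direction by edgeR, 7 were lower at an unadjusted p under 0.05, and DESeq2 called 4 lower and 0 higher. Their median log2 fold change was -0.24. Atp6v0c, the proteolipid of the proton-conducting ring, averaged 102 ± 7.44 CPM in KO and 139.9 ± 20.7 in WT (SD, n = 4 each, log2 fold change -0.46, edgeR adjusted p = 0.0510). Atp6v0d1, the broadly expressed counterpart of Atp6v0d2, averaged 88.2 ± 2.68 CPM in KO and 104 ± 3.23 in WT (log2 fold change -0.24, edgeR adjusted p = 0.0744), and Atp6ap2 and Atp6v1e1 had log2 fold changes of -0.41 and -0.40 with edgeR adjusted p-values of 0.0860 and 0.0995.

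Ratios of an osteoclast-enriched isoform to its broadly expressed counterpart do not depend on library scaling, and 3 were compared. The log2 ratio of Atp6v0d2 to Atp6v0d1 averaged 0.523 ± 0.320 in KO and 0.816 ± 0.298 in WT, a difference of -0.29 (SD, n = 4 each, exact permutation test, two-sided, p = 0.257). The difference was -0.21 for Tcirg1 over Atp6v0a1 (exact p = 0.2) and -0.34 for Itgb3 over Itgb5 (exact p = 0.143). All 3 had an adjusted p of 0.257 by the exact test, whose smallest possible p with 4 against 4 libraries is 0.0286, so unequal change of the isoforms was not shown. Without KO 1 the Atp6v0d2 and Tcirg1 differences were -0.15 and -0.10, and without WT 3 the Atp6v0d2 and Itgb3 differences were -0.18 and -0.20.

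None of the 8 ion transport and vesicle genes was called by edgeR, although all 8 log2 fold changes were below 0, with a median of -0.29, and 4 were lower at an unadjusted p under 0.05. DESeq2 called 1, Snx10. Snx10, a sorting nexin of endosomes whose loss causes osteopetrosis, had 69.3, 98.2, 118 and 97.4 CPM in KO 1 to KO 4, against 106, 145, 179.6 and 139 CPM in WT 1 to WT 4. KO 1 was far below and WT 3 far above the rest, the groups overlapped through KO 3 and WT 1, and the log2 fold change was -0.57 ± 0.189 (SE, edgeR adjusted p = 0.177). Slc9b2, a sodium-proton antiporter induced during osteoclast formation, had 82.4, 108, 128 and 109 CPM in KO 1 to KO 4, against 112, 138, 173 and 151 CPM in WT 1 to WT 4. KO 3 lay above WT 1, and the log2 fold change was -0.42 ± 0.150 (SE, edgeR adjusted p = 0.189).

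The 6 genes of the chloride path, acid supply and vesicle transport that follow had log2 fold changes from -0.36 to -0.18. Clcn7, the chloride-proton exchanger of the ruffled border, had a log2 fold change of -0.18 and its partner subunit Ostm1 one of -0.36 (edgeR adjusted p = 0.392 and 0.248). Slc4a2, the chloride-bicarbonate exchanger of the opposite membrane, had a log2 fold change of -0.18, and opposite-strand genes cover 13.7% of its exon bases. Car2, the carbonic anhydrase that supplies protons, ranged from 18.3 to 50.6 CPM in KO and from 28.7 to 47.5 CPM in WT, with KO 2 the highest of all 8 libraries and an SE of 0.352 on a log2 fold change of -0.23. Plekhm1, a Rab7 effector of lysosome transport, and Rufy4, a RUN and FYVE domain protein of autophagy and lysosomes, had log2 fold changes of -0.22 and -0.36.

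The first of the Clcn7 windows (chr17:25133141-25133440, plus strand) is shown because it held the most MITF letters of any window here.
Clcn7 promoter: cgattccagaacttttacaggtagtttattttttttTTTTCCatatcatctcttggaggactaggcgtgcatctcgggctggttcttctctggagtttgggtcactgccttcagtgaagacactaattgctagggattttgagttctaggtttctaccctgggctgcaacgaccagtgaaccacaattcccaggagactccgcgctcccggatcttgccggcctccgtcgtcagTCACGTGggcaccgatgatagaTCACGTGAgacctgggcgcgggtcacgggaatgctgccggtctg

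In it, the MITF motif started at bases 235, 257 and 258, the last 2 in 1 overlapping stretch just after the start site, and the NFAT motif at base 37.

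Of the 6 receptor and fusion genes, 0 were called by edgeR, 3 were lower at an unadjusted p under 0.05, and DESeq2 called 2 lower, Ocstamp and Dcstamp. Both encode membrane proteins needed for osteoclast precursors to fuse in mice. Ocstamp had 18.01, 19.8, 21.9 and 25.4 CPM in KO 1 to KO 4, against 25.6, 30.9, 36.5 and 37.5 CPM in WT 1 to WT 4. The groups did not overlap, though KO 4 and WT 1 nearly touched, and the log2 fold change of -0.62 ± 0.134 (SE), the lowest of the 32, had an edgeR adjusted p of 0.0510. Dcstamp had 27.5, 30.8, 37.8 and 32.5 CPM in KO 1 to KO 4, against 34.0, 45.1, 52.7 and 43.5 CPM in WT 1 to WT 4. KO 3 lay above WT 1, and the log2 fold change was -0.45 ± 0.130 (SE, edgeR adjusted p = 0.124).

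Calcr, the calcitonin receptor, was sparse, with 3.05 to 4.05 CPM in KO and 3.49 to 6.53 CPM in WT and a log2 fold change of -0.54 ± 0.196 (SE, edgeR adjusted p = 0.189). Oscar, a collagen-binding receptor that signals through the Fc receptor gamma chain, had a log2 fold change of -0.43 ± 0.2005 (SE, edgeR adjusted p = 0.311). Siglec15, a sialic acid-binding lectin that signals through DAP12, had one of -0.28 ± 0.230 (SE, edgeR adjusted p = 0.560). Sigirr, a negative regulator of interleukin-1 and Toll-like receptor signalling, was the exception among the 32 genes. It averaged 4.12 ± 0.471 CPM in KO and 4.05 ± 0.706 CPM in WT (SD, n = 4 each), with a log2 fold change of 0.03 ± 0.155 (SE, edgeR adjusted p = 0.947).

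The Oscar window (chr7:3616108-3616407, minus strand) is shown because it held matches to 3 of the 4 motifs.
Oscar promoter: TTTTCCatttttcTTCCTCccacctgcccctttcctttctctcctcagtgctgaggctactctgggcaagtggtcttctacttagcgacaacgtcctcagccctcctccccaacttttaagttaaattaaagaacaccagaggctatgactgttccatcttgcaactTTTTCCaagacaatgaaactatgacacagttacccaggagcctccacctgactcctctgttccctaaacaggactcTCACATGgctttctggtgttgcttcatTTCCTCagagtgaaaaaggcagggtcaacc

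It held the NFAT motif at bases 1 and 168, the PU.1 motif at bases 14 and 271, and the MITF motif at base 244.

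The 4 adhesion genes had a median log2 fold change of -0.29 and 0 calls by edgeR, with 2 of the 4 lower at an unadjusted p under 0.05 and 1, Itgb3, called lower by DESeq2. Itgb3, the beta chain of the vitronectin receptor that anchors osteoclasts to bone, had 140.5, 145, 169 and 167 CPM in KO 1 to KO 4, against 157, 193, 253 and 224 CPM in WT 1 to WT 4. WT 1 lay below KO 3 and KO 4, and the log2 fold change was -0.41 ± 0.131 (SE, edgeR adjusted p = 0.152). Its alpha chain partner Itgav, which many other cells also make, had 245, 303, 325 and 239 CPM in KO 1 to KO 4, against 273, 361, 399 and 362 CPM in WT 1 to WT 4. WT 1 lay below KO 2 and KO 3, and the log2 fold change was -0.33 ± 0.130 (SE, edgeR adjusted p = 0.231). Fermt3, the kindlin of blood cells that activates integrins, and Src, the kinase required for ruffled borders, had log2 fold changes of -0.25 and -0.17.

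Of the 21 other podosome and sealing zone genes listed, 2 were called lower and 0 higher, and 14 had a log2 fold change below 0, with a median of -0.11. Rac2, a small GTPase of blood cells, fell to 43.9 ± 6.01 CPM in KO, against 68.4 ± 8.92 in WT (SD, n = 4 each, log2 fold change -0.64, edgeR adjusted p = 0.0228). Wipf1, a partner of the actin regulator WASP, fell to 63.5 ± 1.02 CPM in KO, against 82.9 ± 7.05 in WT (log2 fold change -0.38, edgeR adjusted p = 0.0235). Lcp1 and Pstpip1 had log2 fold changes of -0.41 and -0.53 (edgeR adjusted p = 0.0862 and 0.153). These 4 genes are used by many blood cells besides osteoclasts.

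Both transcription factors of the group fell in KO. Mitf, a basic helix-loop-helix factor that drives osteoclast genes with PU.1, had 11.3, 12.1, 12.4 and 10.4 CPM in KO 1 to KO 4, against 13.9, 15.4, 16.1 and 17.3 CPM in WT 1 to WT 4. The groups did not overlap, KO 4 was lowest and WT 4 highest, and the log2 fold change was -0.44 ± 0.0938 (SE, edgeR adjusted p = 0.0428). Jdp2, a bZIP factor of the AP-1 family required for osteoclast differentiation in mice, had 59.8, 67.7, 67.6 and 77.6 CPM in KO 1 to KO 4, against 80.0, 90.5, 98.9 and 98.4 CPM in WT 1 to WT 4. Again no KO library reached a WT library, and the log2 fold change was -0.43 ± 0.0923 (SE, edgeR adjusted p = 0.0422). Each of the 2 was called in 2 of the 8 fits without a library, and opposite-strand genes cover 7.68% of the exon bases of Jdp2. Mitf (ENSMUSG00000035158) lies on chromosome 6 from 97807052 to 98021349 and Jdp2 (ENSMUSG00000034271) on chromosome 12 from 85599027 to 85639878, both on the plus strand. Traf6, the adaptor of the RANKL receptor, had a log2 fold change of -0.21 ± 0.0921 (SE, edgeR adjusted p = 0.271).

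Of the 27 other genes of osteoclast signalling listed, which cover RANK, M-CSF receptor, ITAM and NF-kappaB signalling and their transcription factors, 4 were called lower and 0 higher, 24 had a log2 fold change below 0, and the median was -0.26. Fos, the AP-1 subunit without which mice form no osteoclasts, fell to 18.9 ± 0.527 CPM in KO, against 51.0 ± 13.8 in WT (SD, n = 4 each, log2 fold change -1.43, edgeR adjusted p = 0.00358). Spi1, which encodes PU.1, fell to 33.0 ± 5.28 CPM in KO, against 48.8 ± 6.52 in WT (log2 fold change -0.57, edgeR adjusted p = 0.0488), with overlap between the groups. Fcer1g, the Fc receptor gamma chain that Oscar signals through, fell to 27.3 ± 1.82 CPM in KO, against 35.7 ± 2.44 in WT (log2 fold change -0.38, edgeR adjusted p = 0.0316). Fos, Spi1 and Fcer1g are expressed in macrophages as well, and Fos in many cell types.

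Lysosomal genes are shared by osteoclasts with most cells. Of 26, 0 were called in either direction by edgeR, 11 were lower at an unadjusted p under 0.05, and DESeq2 called 4 lower and 0 higher. Their median log2 fold change was -0.17. The 3 of smallest p were Ctsb, Gusb and Ctsa, with log2 fold changes of -0.32, -0.32 and -0.26 and edgeR adjusted p-values of 0.0590, 0.0612 and 0.115. Of 8 further genes known from osteoclasts, 0 were called by edgeR, 4 were lower at an unadjusted p under 0.05, and DESeq2 called 3 lower. All 8 had a log2 fold change below 0, with a median of -0.28, among them Mst1r at -0.53, Rab38 at -0.40, Slc37a2 at -0.48 and Gpr137b at -0.49.

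The 8 libraries differed in the level of the osteoclast genes within each genotype as well as between them. As the median over the 32 genes of log2 CPM minus the gene's mean over all libraries, KO 1 to KO 4 were at -0.44, -0.18, -0.05 and -0.14, and WT 1 to WT 4 at -0.11, 0.22, 0.43 and 0.27. KO 1 was the lowest of the 8 libraries for 25 of the 32 genes, and WT 3 the highest for 24. WT 1 was the lowest WT library for 30 genes and lay within the range of the KO libraries.

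**Figure D3:**
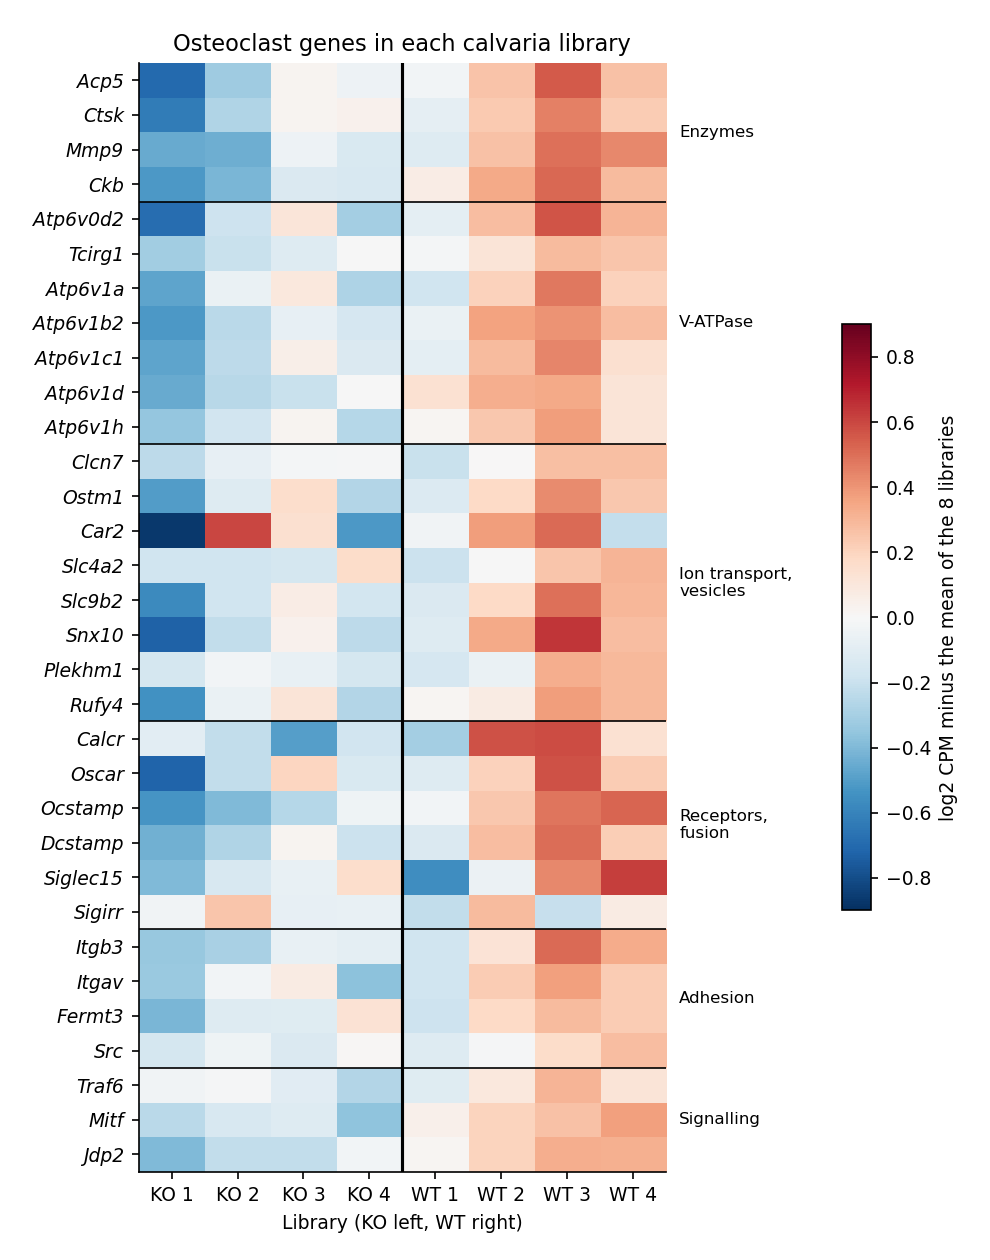
Log2 CPM of each osteoclast gene in each library, minus the gene's mean over the 8 libraries, KO left and WT right, with genes in rows by role. KO 1 is the darkest blue column in most rows, WT 3 the darkest red, and WT 1 is paler than the other WT libraries.

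Within genotype, most of the genes followed Ctsk from library to library. With each gene centred on its genotype mean, 30 of the other 31 genes had a Pearson r with Ctsk above 0, with a median of 0.82, against 50.6% above 0 and a median of 0.006 over all tested genes. In other lists the median r was 0.71 for other V-ATPase subunits, 0.71 for further osteoclast genes and 0.46 for lysosomal genes. It was 0.44 for erythroid markers, 0.41 for other osteoclast signalling genes and 0.23 for other podosome genes. Skin markers had 0.26, megakaryocyte markers 0.06, brain markers -0.27 and osteoblast markers -0.35. By an exact permutation of the libraries within genotype (576 orders, two-sided), 21 of the 31 were positive at an unadjusted p under 0.05, against 2.58% of all tested genes. The 31 correlations share their libraries and 1 anchor gene. After adjustment over the 31 correlations computed, 18 passed with Pearson's r and 0 with Spearman's rho, whose median was 0.67 and whose smallest adjusted p was 0.0861 (exact permutation). After adjustment over all tested genes 0 passed with Pearson's r (smallest adjusted p = 0.868, exact permutation).

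The highest r values were those of Acp5 and Ckb. Acp5 had r = 0.99 and rho = 0.90 (exact permutation p = 0.00694 and 0.0139, adjusted over the 31 correlations 0.0215 and 0.0861), and Ckb r = 0.97 and rho = 0.90 (exact permutation p = 0.00347 and 0.0139, adjusted 0.0215 and 0.0861). Mmp9, the other enzyme, had r = 0.86 and rho = 0.79 (exact permutation p = 0.0139 and 0.0382, adjusted 0.0308 and 0.0994), and Oscar, at r = 0.94, was among the members above it. By role, the median r was 0.97 for the enzymes, 0.87 for the V-ATPase subunits, 0.78 for receptors and fusion genes, 0.77 for ion transport and vesicles, 0.71 for adhesion and 0.28 for signalling and transcription. Jdp2 was high in the last group, at r = 0.86 (exact permutation p = 0.00694, adjusted 0.0215). Mitf at 0.28, Traf6 at 0.16, Calcr at 0.27 and Sigirr at -0.04 did not pass (exact permutation, adjusted p = 0.531, 0.719, 0.531 and 0.833).

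KO 1 and WT 3 are the libraries farthest from the median of Ctsk. Without them the median r was 0.69 over 6 libraries and 30 of 31 were above 0, and 0 passed the adjusted threshold, where the 36 possible orders allow no p below 0.0278. With single libraries left out, 0 genes passed without KO 1, KO 2, WT 1 or WT 3, 10 without WT 2, 13 without KO 3 or WT 4 and 21 without KO 4.

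**Figure D4:**
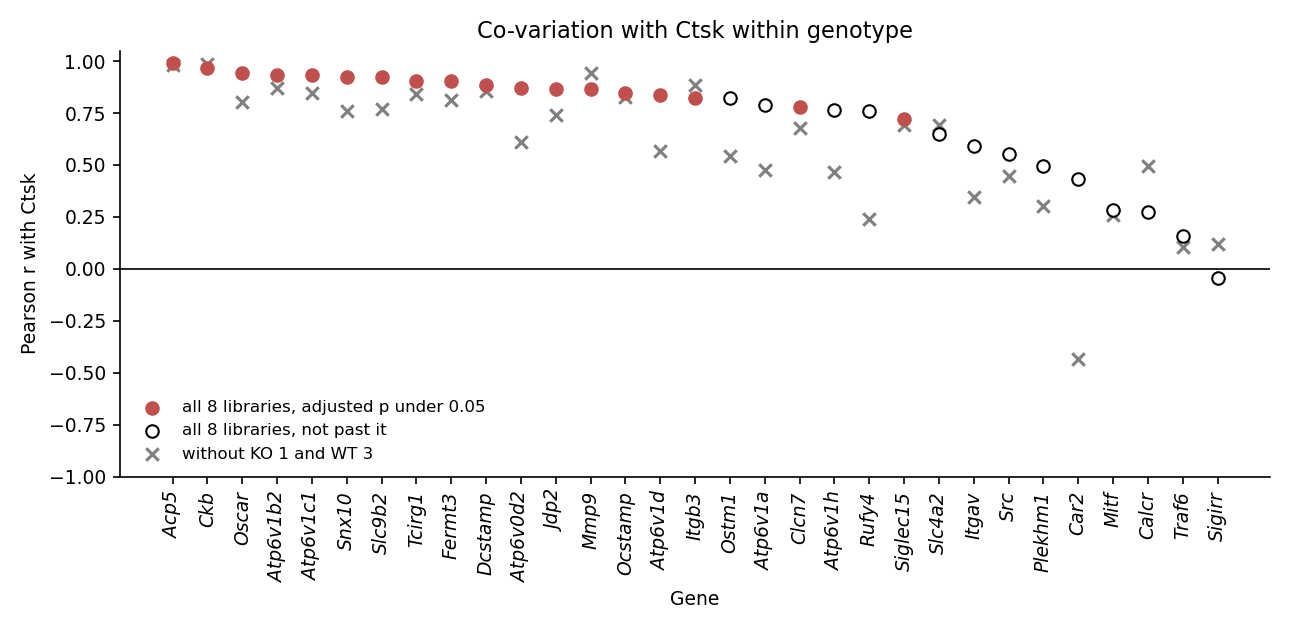
Pearson r of each osteoclast gene with Ctsk over the libraries, after centring within genotype; circles use all 8 libraries, filled where the exact permutation p adjusted over the 31 genes was under 0.05, and crosses leave out KO 1 and WT 3. The circles run down from Acp5 at 0.99, Mitf, Calcr, Traf6 and Sigirr lie at 0.28 or below, and Car2 changes sign without the 2 libraries.

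Other tissues and cells in the libraries also varied. The skeletal muscle markers, 12 of 12 tested and 0 called (0 at an unadjusted p under 0.05, 0 by DESeq2), ran against Ctsk within genotype, with a median r of -0.57, and their median log2 CPM, relative to the mean of the 8 libraries, was highest in KO 1, at 2.77, and lowest in WT 3, at -5.19. Within the 3 libraries low in muscle RNA, the 2 KO libraries were below WT 3 for 30 of the 32 osteoclast genes, against 39.5% of all tested genes, with a median difference of -0.53 in log2 CPM and a single WT library. Within the other 5, the 2 KO libraries were below the 3 WT libraries for 21 genes, against 13.9% of all tested genes. The median difference there was -0.43. WT 3, in the low-muscle set, was the highest of the 8 libraries for 24 of the 32 osteoclast genes. KO 1, in the other set, was the lowest for 25. Leaving out both KO 1 and WT 3 gave a median log2 fold change of -0.21 over the 32 genes. With muscle markers as a covariate 10 members were called lower, against 1.30% of all tested genes, and without the 3 low-muscle libraries 0, against 0.0325%.

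Macrophages share precursors with osteoclasts, and their markers moved with genotype. Of 15, 5 were called lower and 0 higher, all 15 had a log2 fold change below 0 with a median of -0.55, and none was at 0 in any group. Their summed level ran from 575 to 674 CPM in KO and from 750.0 to 958 CPM in WT, without overlap. Lyz2 had a log2 fold change of -0.89, Cx3cr1 of -0.72, Ccr2 of -1.05 and Ctss of -0.78 (edgeR adjusted p = 0.000487, 0.0111, 0.0127 and 0.0135). Within genotype the macrophage markers had a median r with Ctsk of 0.01. Their summed level was 586, 575, 579 and 674 CPM in KO 1 to KO 4, where KO 1 was lowest for 25 of the 32 osteoclast genes. The highest sum, 958 CPM, was in WT 3, also the highest of the 8 libraries for 24 of the 32 osteoclast genes. With these markers as a covariate, 0 members were called at an adjusted p under 0.05, where 0% of all tested genes were, and the median log2 fold change of the 32 was -0.30. Since the markers separate the genotypes without overlap, macrophage content and genotype cannot be told apart here.

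**Figure D5:**
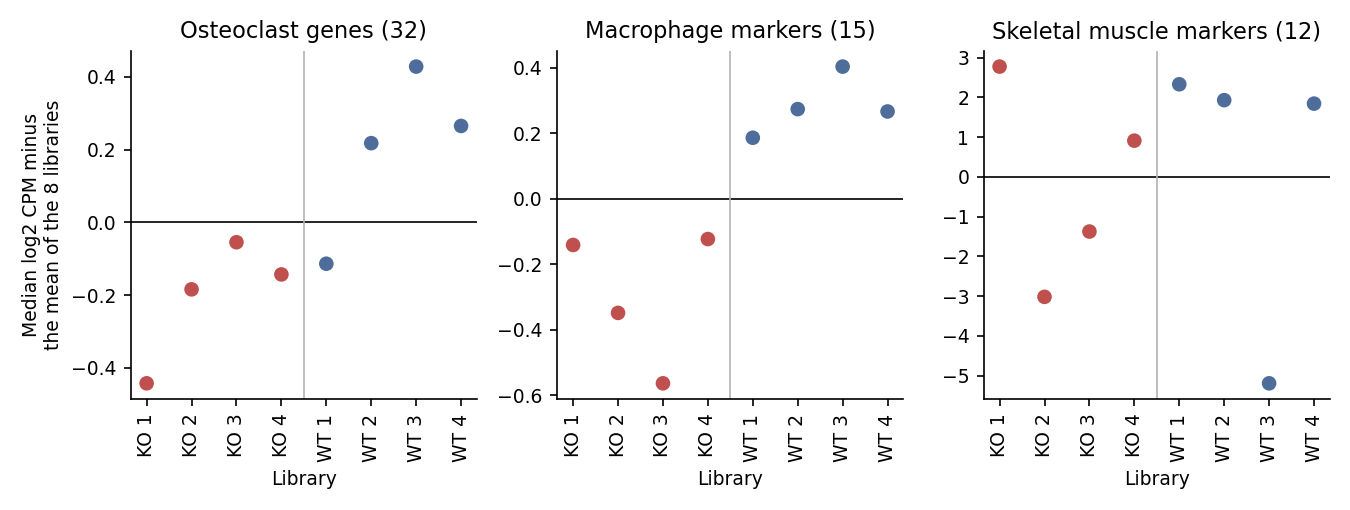
Median log2 CPM of the osteoclast genes, macrophage markers and skeletal muscle markers in each library, minus the mean of the 8 libraries, KO left and WT right. For osteoclast genes WT 1, at -0.11, lies among the KO libraries, macrophage markers separate the genotypes, and muscle markers are lowest in WT 3 and highest in KO 1.

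The remaining marker lists had 0 or 1 call each. Of 10 osteoblast markers, 1 was called lower, Bglap, at 767 ± 73.7 CPM in KO and 1072 ± 130 in WT (SD, n = 4 each, edgeR adjusted p = 0.0383), 4 were lower at an unadjusted p under 0.05, DESeq2 called 2 lower, and the median log2 fold change was -0.12. Neutrophil markers had 0 calls among 12 (0 at an unadjusted p under 0.05, 0 by DESeq2) and were lowest in KO 1, where their sum was 4.76 CPM, against 22.7 to 91.4 CPM in the other libraries. They followed Ctsk within genotype with a median r of 0.60. Of 12 erythroid markers, 1, the transferrin receptor Tfrc, was called lower (log2 fold change -0.75, edgeR adjusted p = 0.0167), and of 10 brain markers, 1, Mbp, was called lower (log2 fold change -0.74, edgeR adjusted p = 0.0152). Megakaryocyte and skin markers had 0 calls among 6 and 4 tested (1 and 0 at an unadjusted p under 0.05), with 1 megakaryocyte gene called higher by DESeq2. The part of these other cells in the osteoclast result was not tested.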

How the data were processed

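Bulk RNA of 4 KO and 4 WT calvaria was measured, with the group and replicate number of each library read from its title. The authors deposited raw counts for each Ensembl gene ID and did not normalize them. The submitters' processing notes name bcl2fastq (2.17), STAR (2.5.2b) and featureCounts of Subread (1.5.2) and the build mm10. Neither the annotation release nor the strandedness used in counting is given in the sources used here. Per the labels' protocols, the library kit was NEBNext Ultra II RNA. Coordinates and exon lengths were taken from GENCODE mouse release 21, which uses the same build.

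Genes that passed filterByExpr in edgeR with its defaults numbered 17743 and held 99.9% of the counts. The filter asks for the CPM of 10 counts at the median library total, reached in at least 4 libraries. It also asks for 15 counts in total. TMM factors between 0.972 and 1.04 scaled the library totals for CPM and for log2 CPM, which used a prior count of 2. KO and WT were compared with edgeR 4.0.16 in R 4.3.3 (quasi-likelihood test with robust shrinkage), two-sided. Adjusted p-values are by Benjamini-Hochberg over all tested genes, with a threshold of 0.05. Isoform ratios and correlations with Ctsk were tested by exact permutation over libraries, two-sided. The counting error was under 50% of the spread between libraries (as coefficients of variation) for 29 of the 32 genes in both genotypes. In KO it was more for Calcr, at 7.85% against 11.8%, for Sigirr, at 7.43% against 11.4%, and for Mitf, at 4.42% against 7.63%. The p-values measure the spread between these 8 libraries. Counts were also simulated from the means and totals of these libraries (17469 genes). In them the KO against WT test recovered 34 of 55 genes with a 1.5-fold change and 50 of 73 with a 2-fold change. At a 4-fold change it recovered 58 of 61. The median fold change of the 32 genes, 0.758, was a smaller change than any simulated, so recovery at that size is not known.

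The members and gene lists were chosen with earlier results of these data known, so counts over a list are descriptions and no test was run over a list. Values in every library were given for Acp5, Ctsk, Atp6v0d2 and Tcirg1, for each called gene and for the 2 genes of smallest p in each role. Up to 4 genes of smallest p were named from each other list. Alternatives were DESeq2 1.42.0, limma-voom (limma 3.58.1), RLE scaling, library totals alone, other filters, an adjusted p of 0.1, the replicate number as a block, marker covariates and fits without single libraries or sets of them. Individual values of some genes in the other lists are not reported here, although the lists' counts include them.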

Additional observations from a re-analysis of the deposited data

Results flagged for a closer look

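In groups of 4 libraries, a library was singled out where its gap to the nearest other library exceeded Dixon's 95% limit for the range of the group. This was so in 4 of the 86 groups examined, where chance alone gives about 4.3. Slc4a2, the chloride-bicarbonate exchanger, had 141 CPM in KO 4, against 111 to 113 CPM in the other KO libraries. Sigirr had 4.83 CPM in KO 2, against 3.84 to 3.96 CPM in the other KO libraries. The summed macrophage markers reached 674 CPM in KO 4, against 575 to 586 CPM in the other KO libraries. The summed brain markers reached 80.6 CPM in WT 1, against 39.3 to 42.5 CPM in the other WT libraries, and WT 1 is also the WT library lowest in osteoclast genes.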

How the results depend on the processing

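The direction of the group stayed the same while the calls varied, but these fits reuse the same libraries and are not independent support. The median log2 fold change of the 32 genes stayed below 0 under every alternative run, from -0.53 within the 3 low-muscle libraries to -0.21 without KO 1 and WT 3, and both of those alternatives were added after seeing the data. Members called lower numbered 4 with edgeR, 15 with DESeq2, 1 with limma-voom, 0 with library totals alone, 7 with no filter on low counts and 8 at an adjusted p under 0.1, where 0.558%, 0.737% and 1.99% of all tested genes were called lower in the last 3. They numbered 10 with the muscle covariate, 0 with the macrophage covariate, 0 without the 3 low-muscle libraries, 0 without KO 1 and WT 3 (0.409% of all genes), and 0 to 9 with single libraries left out. RLE scaling and a filter at 1 CPM kept the count within 1.5 times. The causes of these differences were not tested. Over all genes, 234 were called with edgeR, 952 with DESeq2, 167 with limma-voom, 355 with no filter, 329 with the muscle covariate, 8 without the low-muscle libraries, 91 without KO 1 and WT 3, and 57 to 608 with single libraries left out.

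Same-numbered libraries deviated together in 2 of 4 pairs at a correlation above 0.1, and 1 of 8 libraries correlated best with its own number, so the numbers were not taken as a pairing. With the replicate number as a block, 12 members were called lower, against 0.586% of all tested genes, and 126 genes in all were called. Of the 4 members called without the block, Ckb and Jdp2 passed with it, and Atp6v1d and Mitf did not (adjusted p = 0.0740 and 0.106). Adjusted p-values of the 3 isoform ratios ran from 0.188 to 0.250 in the sign-flip test over same-numbered pairs, whose smallest two-sided p is 0.125.

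Signs turned only for genes that were not called. Sigirr went to -0.012 with the macrophage covariate, -0.104 without the low-muscle libraries and -0.0086 without KO 1 and WT 3, and ran from -0.0496 to 0.137 with single libraries left out. Car2 was 0.094 without KO 1 and WT 3. With the macrophage covariate, Clcn7 was 0.069, Slc4a2 0.45, Calcr 0.59, Siglec15 0.46, Fermt3 0.24 and Src 0.11. Genes that correlated with Ctsk numbered 0 with Spearman's rho and 0 to 21 with single libraries left out. The isoform ratios kept their sign and missed the threshold under each alternative, of which the sign-flip test could not pass it. Depth adds to the spread of Calcr, Sigirr and Mitf, and 4 libraries a group limit the precision of all 32 genes.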
